A study of Mus musculus with 21 samples.

Results

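The genes described here encode the proteins that copy DNA in S phase. They were taken from a list of 43 gene symbols, and a member was kept where it reached at least 1 FPKM (a level corrected for transcript length and for the number of fragments in a library) in at least 3 of the 21 libraries. All 43 symbols were found and all 43 were kept, of 24322 symbols in the tables and 14662 that met the same condition. Each library was made from EGFP-positive cells, isolated with a cell sorter, of C57BL/6 mice with a Nestin-EGFP transgene, in which regulatory sequence of the stem cell gene Nestin drives the green fluorescent protein. Mothers had been given valproic acid (VPA, an antiepileptic drug that inhibits histone deacetylases) at 300 mg/kg/day by mouth on embryonic days 12, 13 and 14, or methylcellulose as Control. There were 7 groups of 3 libraries. They were VPA and Control at embryonic day 15 (E15, forebrain), VPA and Control at postnatal day 5 (P5, dentate gyrus), and VPA with running, VPA and Control at 12 weeks (dentate gyrus). The running group had been exposed to VPA before birth, and no group ran without VPA.

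DNA is copied once per cell cycle. Before S phase the origin recognition complex, Cdc6 and Cdt1 load the ring-shaped MCM helicase onto origins, and in S phase Cdc45 and the GINS complex switch it on so that it unwinds the double strand. Polymerase alpha with primase starts each new strand, the sliding clamp PCNA holds the main polymerases on the template, and the E2F transcription factors drive many of these genes as a cell leaves G1, so their transcripts mark dividing progenitors in the embryonic forebrain and the dentate gyrus. The members fall into origin licensing (Orc1, Orc6, Cdc6, Cdt1), the replicative helicase (Mcm2, Mcm3, Mcm4, Mcm5, Mcm6, Mcm7), helicase activation (Cdc45, Gins1, Gins2, Gins3, Gins4, Mcm10), polymerases and primase (Pola1, Pola2, Prim1, Prim2, Pold1, Pole), clamp, clamp loader and fork proteins (Pcna, Rfc2, Rfc3, Rfc4, Rfc5, Rpa1, Rpa2, Fen1, Lig1, Clspn), nucleotide supply (Rrm1, Rrm2, Tyms, Tk1, Dut), chromatin assembly and histone supply (Chaf1a, Chaf1b, Slbp) and S phase entry (E2f1, Ccne1, Ccne2).

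What the members share in sequence was looked at first in their promoters, in RefSeq windows on GRCm38.p6 that run from 250 bases before to 50 after the annotated start. Windows were found for 35 of the 43 members, and Mcm4, Gins1, Gins2, Gins4, Prim2, Pole, Rfc2 and Ccne2 had none. The E2F-type motifs searched on both strands were TTTGGCGC, TTTCCCGC, TTTGCCGC and TTTCGCGC. At least 1 was found in 13 of 35 members (37.1%), against 704 of 27025 genes (2.6%) in the whole table and 493 of 10813 genes (4.6%) among those kept in the expression tables. A list of 65 other replication genes, used throughout for comparison, had matches in 19 of 49 (38.8%). More than 1 separate match was found in 4 members (11.4%), against 0.1% of all genes, and these 4 promoters are printed as the ones densest in the motif. By role, 3 of 4 licensing genes and 4 of 5 helicase genes with a window had a match, and the 5 nucleotide supply genes had 0. CCAAT, searched on both strands, was in 21 of 35 members (60.0%) and in 41.1% of all genes. A match is a description of letters and not of a bound site. Of the single motifs, TTTCGCGC was in 7 members, TTTCCCGC in 6, TTTGGCGC in 5 and TTTGCCGC in 0.

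The stretches from 250 bases before to 30 after the start are given 5′ to 3′ along the gene, with the E2F-type matches in capitals. All 4 genes lie on the minus strand, Mcm6 at chr1:128359676-128359955, Mcm3 at chr1:20820283-20820562, Mcm7 at chr5:138171854-138172133 and Rfc3 at chr5:151651179-151651458. Mcm3, Mcm6 and Mcm7 are helicase subunits and Rfc3 is a subunit of the clamp loader.
Mcm6: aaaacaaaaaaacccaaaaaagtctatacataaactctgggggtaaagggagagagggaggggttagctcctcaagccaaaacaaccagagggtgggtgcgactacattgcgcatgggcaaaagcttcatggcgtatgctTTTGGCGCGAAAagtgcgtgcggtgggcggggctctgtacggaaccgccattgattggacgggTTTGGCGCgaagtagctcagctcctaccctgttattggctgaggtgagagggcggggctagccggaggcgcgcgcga
Mcm3: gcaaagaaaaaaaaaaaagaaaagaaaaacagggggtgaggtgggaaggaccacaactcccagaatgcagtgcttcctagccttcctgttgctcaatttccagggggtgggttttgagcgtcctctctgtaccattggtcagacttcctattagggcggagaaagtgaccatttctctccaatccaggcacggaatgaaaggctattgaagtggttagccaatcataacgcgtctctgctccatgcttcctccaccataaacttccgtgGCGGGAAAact
Mcm7: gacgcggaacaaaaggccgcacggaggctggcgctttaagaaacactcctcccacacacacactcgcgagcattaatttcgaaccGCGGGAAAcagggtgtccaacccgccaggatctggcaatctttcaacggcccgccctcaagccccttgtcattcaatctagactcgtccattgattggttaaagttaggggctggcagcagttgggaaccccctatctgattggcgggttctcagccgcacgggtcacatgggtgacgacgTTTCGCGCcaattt
Rfc3: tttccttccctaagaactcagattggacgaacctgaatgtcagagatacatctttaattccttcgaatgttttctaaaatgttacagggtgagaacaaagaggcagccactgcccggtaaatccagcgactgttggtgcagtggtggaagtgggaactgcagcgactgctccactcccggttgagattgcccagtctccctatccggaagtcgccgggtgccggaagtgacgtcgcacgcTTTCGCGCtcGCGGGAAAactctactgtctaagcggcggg
In Mcm6 the upstream run holds overlapping matches to TTTGGCGC and to the reverse of TTTCGCGC and was counted once. Counted from the annotated start, its matches begin at positions -110 and -47, those of Mcm7 at -165 and 17, and those of Rfc3 at -10 and 1. Mcm3 has matches at 20 and 39, of which the one at 39 lies past the printed stretch.

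**Figure D1:**
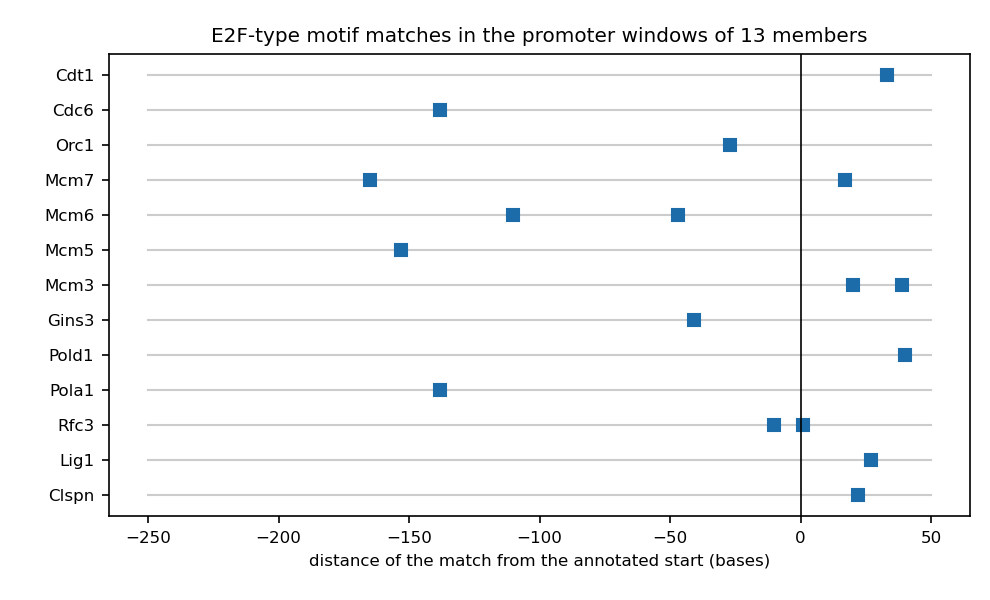
Places of E2F-type motif matches (squares) in the promoter windows of the 13 members that had any, in bases from the annotated start, with each window drawn as a grey line from 250 bases before to 50 after it. Mcm6, Mcm3, Mcm7 and Rfc3 have 2 separate matches and the other 9 have 1.

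The FPKM of all genes summed to between 465610 and 506183 in E15 libraries, 475775 and 492041 in P5 libraries and 482753 and 574594 in 12-week libraries, and the number of reads per library was not used here. The most common ratio between libraries among genes under 2 FPKM, which gives relative depth where whole reads were counted, was 0.966 to 1.40 times Control replicate 1 at E15 and 0.742 to 1.14 times at P5, each shared by 200 to 412 genes. At 12 weeks no ratio was shared by more than 16 genes and several tied or nearly tied, so depth there is unknown. Between 16116 and 17601 genes were above 0 at E15 and P5, against 12019 to 15210 at 12 weeks, and members listed at 0 occurred at 12 weeks only (3 in VPA replicate 3, 2 in running replicate 2 and 4 in running replicate 3). The median SD of a member among the replicates of a group was 0.098 to 0.17 in log2(FPKM + 1) at E15 and P5, and 0.38 to 0.48 at 12 weeks. Of the 10 stem and radial glial markers none was at 0 in a whole group, and their summed level ran between 498 and 665 FPKM in E15 libraries, 2549 and 3064 in P5 libraries and 886 and 1970 in 12-week libraries. Nestin regulatory sequence is also active in vessel-associated cells, and 6 pericyte markers summed to between 10.3 and 16.0 FPKM in E15 libraries, 99.98 and 265 in P5 libraries and 636 and 2145 in 12-week libraries. VPA replicate 3 at E15 stood apart in 5 choroid plexus markers, which summed to 11153 FPKM there and to 11.5 to 155 in the other E15 libraries. In Control replicate 1 at 12 weeks, 6 microglial markers summed to 269 FPKM, against 29.9 and 49.8 in replicates 2 and 3. Red cell markers summed to 824 FPKM there, against 0 and 162. Choroid plexus markers summed to 431 and 690 FPKM in running replicates 2 and 3, against 57.9 in running replicate 1. In sorted pools, fewer cells in S phase and less RNA per such cell cannot be told apart. The labels do not say whether replicates were separate litters, so the p-values measure the spread between libraries, which may be technical.

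Per-library values are given in the order of replicates 1, 2 and 3. Averaged over the 21 libraries, member levels spanned from 1.14 FPKM for Orc1 to 89.3 FPKM for Pcna, with Mcm7 (50.8), Rfc2 (43.7), Mcm6 (39.9) and Orc6 (34.1) next below Pcna. The summed level of the 43 members was 657 to 705 FPKM in VPA and 598 to 745 in Control at E15, and 749 to 855 in VPA and 878 to 947 in Control at P5. At 12 weeks it was 940 to 1001 FPKM in VPA with running, 720 to 808 in VPA and 797 to 955 in Control. The sums of VPA and Control overlapped at E15 and at 12 weeks and did not overlap at P5, and the running sums lay above all VPA sums and overlapped Control. These sums follow the most abundant members, and the map of levels by library shows each gene.

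**Figure D2:**
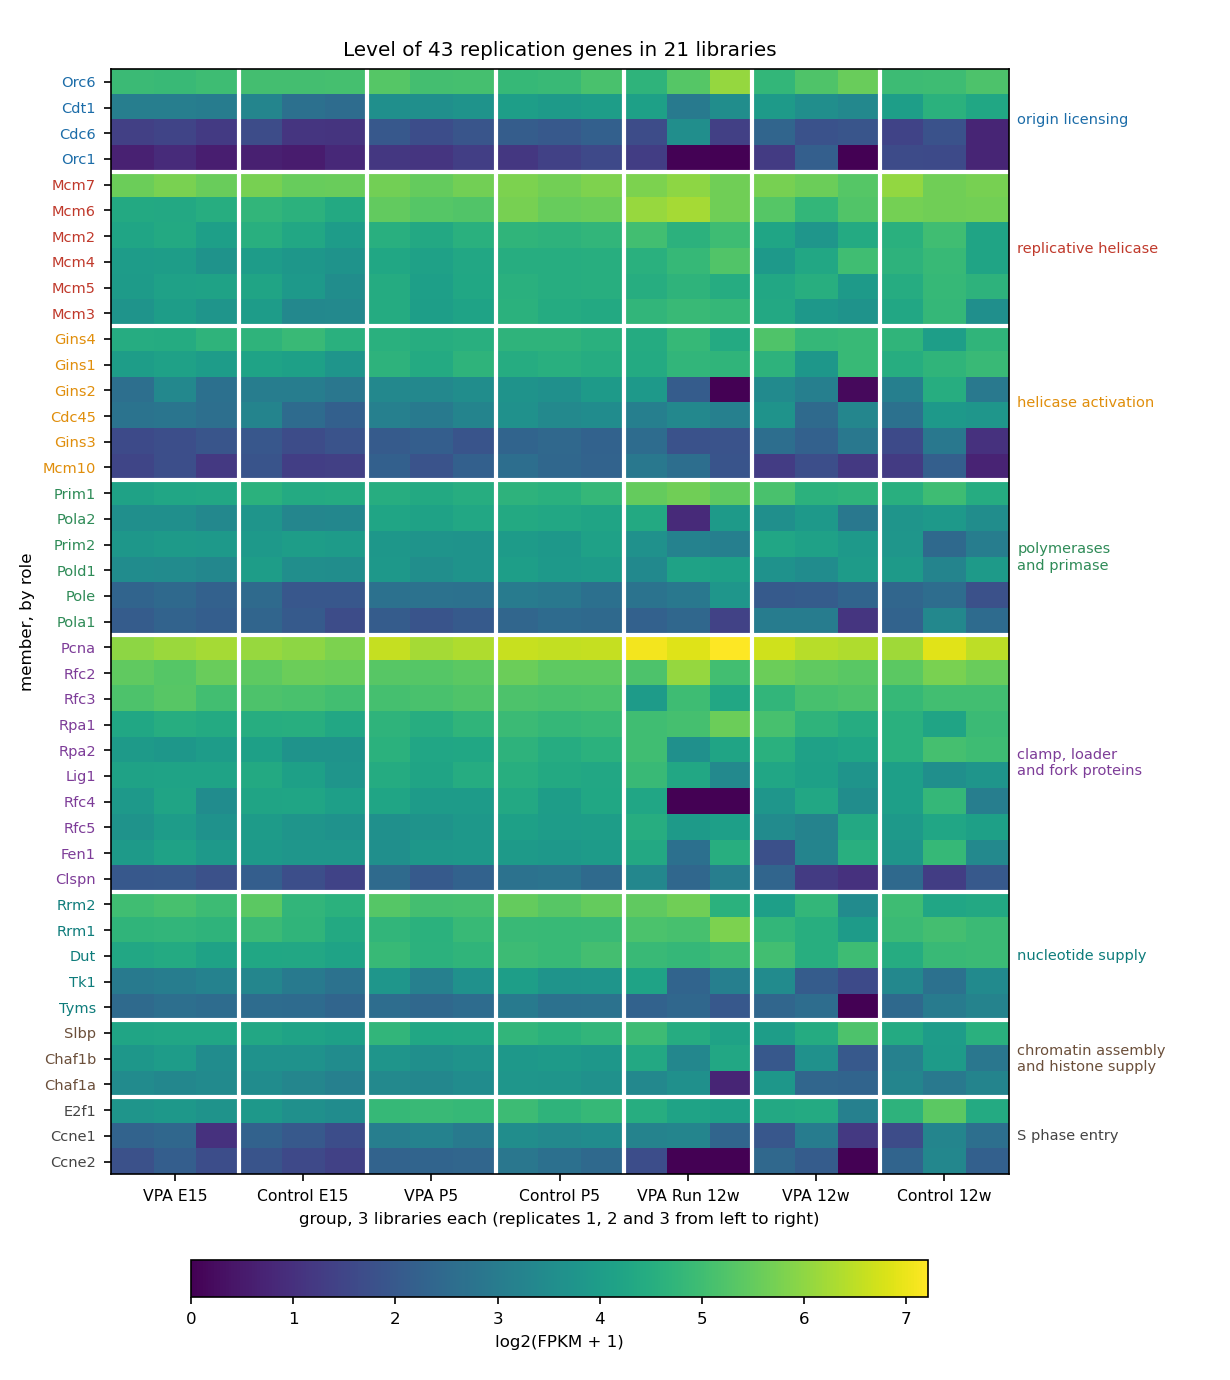
Level of each of the 43 members (rows, ordered by role and then by mean level) in each of the 21 libraries (columns, 3 per group), as log2(FPKM + 1). Pcna, Mcm7 and Rfc2 are the brightest rows, Orc1 stays dark throughout, and the patchy columns are those at 12 weeks, where Rfc4 is at 0 in running replicates 2 and 3.

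Among the licensing genes, Orc6, a subunit of the origin recognition complex, was the most abundant. At E15 it had 29.4, 28.8 and 30.6 FPKM in VPA, against 32.1, 32.5 and 32.7 in Control. At P5 it had 38.6, 32.4 and 33.0 FPKM in VPA, against 27.3, 28.9 and 34.7 in Control. At 12 weeks it had 25.0, 38.5 and 66.3 FPKM in VPA with running, 26.7, 36.7 and 46.5 in VPA and 29.9, 30.5 and 35.5 in Control. All VPA libraries were below all Control libraries at E15, and the groups overlapped at the later ages. Orc1, the largest subunit of the same complex, was the member with the lowest level and did not reach the level needed for the test at E15. It had 0.586, 0.846 and 0.531 FPKM in VPA and 0.544, 0.469 and 0.785 in Control at E15, and 1.25, 1.15 and 1.51 in VPA and 1.26, 1.60 and 2.01 in Control at P5. At 12 weeks Orc1 had 1.47, 0.0256 and 0 FPKM in VPA with running, 1.39, 3.53 and 0 in VPA, and 2.14, 2.10 and 0.684 in Control. Its groups overlapped at every age.

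Mcm7, the most abundant helicase subunit, had 47.3, 53.1 and 46.8 FPKM in VPA and 52.3, 45.1 and 46.5 in Control at E15. At P5 it had 50.2, 44.5 and 49.8 FPKM in VPA and 54.8, 49.97 and 55.0 in Control. At 12 weeks it had 54.9, 62.8 and 49.5 FPKM in VPA with running, 51.9, 47.5 and 38.5 in VPA and 65.3, 49.5 and 52.1 in Control. The groups overlapped at each age, and its level varied little over the study. Gins4, a subunit of the GINS complex that completes the active helicase, had 20.9, 20.9 and 25.0 FPKM in VPA and 24.6, 28.5 and 22.9 in Control at E15. At P5 it had 22.9, 21.7 and 22.5 FPKM in VPA and 24.6, 25.0 and 22.9 in Control, and at 12 weeks 20.8, 27.6 and 20.2 in VPA with running, 36.1, 27.2 and 27.9 in VPA and 25.1, 15.7 and 25.6 in Control. VPA lay below Control without overlap at P5 and above it without overlap at 12 weeks, and the groups overlapped at E15.

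Prim1, the catalytic subunit of primase, had 16.9, 18.4 and 19.1 FPKM in VPA and 23.3, 20.5 and 20.8 in Control at E15. At P5 it had 21.5, 20.0 and 21.7 FPKM in VPA and 24.2, 23.0 and 26.7 in Control. At 12 weeks it had 44.7, 49.1 and 42.0 FPKM in VPA with running, 34.7, 24.0 and 24.8 in VPA and 22.6, 30.4 and 21.2 in Control. VPA was below Control in every library at E15 and P5, and the running libraries were above all other libraries of the study. Pcna, the sliding clamp, had 63.1, 69.3 and 74.3 FPKM in VPA and 68.3, 62.1 and 54.5 in Control at E15, and 94.6, 74.6 and 81.5 in VPA and 96.8, 93.0 and 95.2 in Control at P5. At 12 weeks Pcna had 136, 116 and 147 FPKM in VPA with running, 102, 85.4 and 81.3 in VPA and 72.2, 118 and 88.6 in Control. The running libraries lay above all VPA libraries and overlapped Control through its replicate 2.

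Rrm2, the small subunit of ribonucleotide reductase that makes deoxynucleotides in S phase, had 31.1, 33.4 and 29.5 FPKM in VPA and 41.4, 26.0 and 23.3 in Control at E15. At P5 it had 39.0, 32.5 and 32.7 FPKM in VPA and 44.9, 39.5 and 44.4 in Control. At 12 weeks it had 42.6, 49.4 and 23.4 FPKM in VPA with running, 15.7, 26.4 and 10.1 in VPA and 30.3, 18.4 and 19.3 in Control. VPA lay below Control in every P5 library, and at the other ages the groups overlapped. Slbp, which binds the stem-loop of histone mRNAs, had 17.9, 18.3 and 18.2 FPKM in VPA and 19.0, 17.0 and 16.1 in Control at E15, and 25.9, 18.6 and 19.2 in VPA and 25.7, 23.2 and 26.1 in Control at P5. At 12 weeks Slbp had 29.9, 21.3 and 16.8 FPKM in VPA with running, 15.2, 20.8 and 35.9 in VPA and 20.4, 14.8 and 23.1 in Control, and its groups overlapped at every age. E2f1, an activating E2F factor, had 12.7, 13.5 and 11.9 FPKM in VPA and 13.3, 11.4 and 10.4 in Control at E15, and 27.4, 28.4 and 27.6 in VPA and 29.99, 24.8 and 27.6 in Control at P5. At 12 weeks E2f1 had 21.4, 17.3 and 16.3 FPKM in VPA with running, 19.3, 20.4 and 7.84 in VPA and 24.3, 41.0 and 20.1 in Control. Its VPA and Control libraries overlapped at all 3 ages, and the P5 libraries were all above the E15 libraries.

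**Figure D3:**
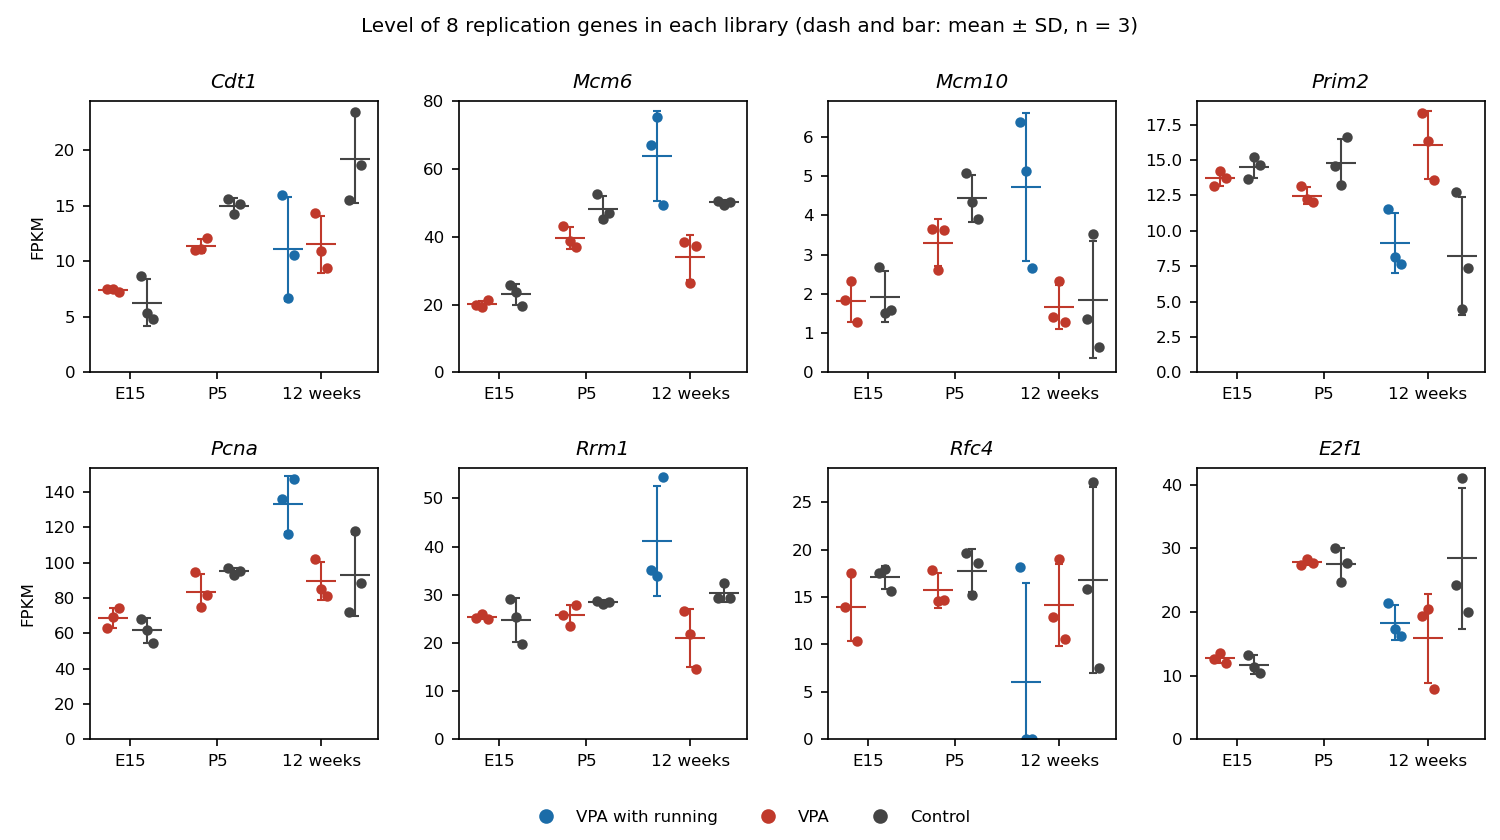
FPKM of 8 members in each library at E15, P5 and 12 weeks, with VPA with running in blue, VPA in red and Control in dark grey, points for libraries and the dash and bar for mean ± SD (n = 3). Cdt1 is lower in all VPA libraries than in all Control libraries at P5, Mcm6 is higher at P5 than at E15, and Rfc4 is at 0 in running replicates 2 and 3.

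VPA was first compared with Control at E15, 1 day after the last dose. No member passed an adjusted p of 0.05 in limma with Benjamini-Hochberg adjustment, where 5 of 12345 genes (0.0405%) did. Of the 42 members tested, 1 was lower at an unadjusted p under 0.05 (5.36% of all genes) and 0 were higher (5.18% of all genes). Estimates were above 0 for 27 members and below 0 for 15, with a median of 0.06 in log2(FPKM + 1), against -0.01 for all genes tested, and a range from -0.30 for Rfc4 to 0.25 for Ccne2. VPA and Control did not overlap in 3 members, all lower in VPA (9.32% of all genes), and in 0 members that were higher (8.19% of all genes). These 3 were Prim1 (-0.23, SE 0.080, adjusted p = 0.440 by limma), Orc6 (-0.13, SE 0.055, adjusted p = 0.480) and Pold1, the catalytic subunit of polymerase delta (-0.26, SE 0.14, adjusted p = 0.534). Pold1 had 10.3, 10.2 and 9.19 FPKM in VPA, against 15.1, 10.9 and 10.6 in Control, where replicate 1 was the high one. Control replicate 1 was the highest of its group in 35 of the 43 members and Control replicate 3 the lowest in 33. Without Control replicate 1 the split was 31 higher and 11 lower (median 0.14, 6 higher at an unadjusted p under 0.05, where 0 were with all libraries), and library weights gave 33 and 9 (median 0.22, 17 higher and 2 lower at that p). Without Control replicate 3 the split turned to 16 higher and 26 lower (median -0.05), without VPA replicate 2 it was 22 and 20 (median 0.01), and without VPA replicate 3, the library with the choroid plexus markers, it was 32 and 10 (median 0.09). The lists whose sums lay apart at E15 were newborn neuron markers (1624 to 1775 FPKM in VPA and 1781 to 2228 in Control) and pericyte markers (10.3 to 12.3 in VPA and 15.1 to 16.0 in Control), and their part in the levels of the members was not tested. Of the 65 other replication genes, 0 passed the threshold and 36 were higher. The smallest p there belonged to Orc5, another origin recognition subunit, with 15.4, 16.0 and 15.9 FPKM in VPA and 12.3, 12.9 and 13.3 in Control (0.28, SE 0.065, adjusted p = 0.344 by limma), and next came Tipin of the fork protection complex (0.19, SE 0.057, adjusted p = 0.393).

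At P5 the replication genes were lower in VPA dentate gyrus cells than in Control in nearly every role, by small amounts. The estimate was below 0 for 40 of 43 members, against 50.9% of all 13328 genes tested, and the median was -0.23 in log2(FPKM + 1), against -0.004 for all genes. VPA lay below Control without overlap in 26 members (15.6% of all genes) and above it in 0. The test across all genes called 1 member lower, Cdt1 (1.34% of all genes were called lower), and 23 members had an unadjusted p under 0.05, all lower (12.5% of all genes). The count of 40 lower members was the same with median-of-ratios and with quantile scaling, and 39 to 41 were lower when any 1 library was left out. With 1 library left out, 12 to 28 members were lower at an unadjusted p under 0.05. That count was 12 without Control replicate 1 or without VPA replicate 2. It was 0 in a fit of all 21 libraries, which takes 1 estimate of spread over all ages.

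Cdt1, the licensing factor that brings the helicase to origins, lies at chr8:122568015-122573554 on the plus strand (mm10, GENCODE vM21). It had 11, 11.1 and 12.1 FPKM in VPA, against 15.6, 14.2 and 15.2 in Control. The 2 groups were each tight and were separated by more than their spread, and Cdt1 fell by 0.37 on the log2(FPKM + 1) scale (95% interval -0.52 to -0.21, SE 0.067, adjusted p = 0.0441 by limma). The call stood close to the threshold. It was lost without any 1 of the 6 libraries (adjusted p 0.0551 to 0.15), with no filter on low values, with quantile normalization, with the replicate block (adjusted p = 0.0878) and in a fit of all 21 libraries, within a range of adjusted p from 0.0296 to 1 over all alternatives. The direction held in all of them.

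Ccne1, the cyclin E that with Cdk2 starts S phase, had 7.46, 8.10 and 6.91 FPKM in VPA, against 10.5, 9.44 and 10.4 in Control, without overlap (-0.39, SE 0.081, adjusted p = 0.0594 by limma). Pola1, the catalytic subunit of polymerase alpha, had 3.29, 2.64 and 3.11 FPKM in VPA, against 4.24, 4.75 and 4.54 in Control, and was the member furthest below 0 (-0.46, SE 0.097, adjusted p = 0.0612). Both stayed just short of the threshold, as did Chaf1a, the large subunit of chromatin assembly factor 1 (-0.30, adjusted p = 0.0779), Rfc5 of the clamp loader (-0.30, adjusted p = 0.0817), Cdc45 of the active helicase (-0.39, adjusted p = 0.0865) and Mcm4 (-0.25, adjusted p = 0.0959). Adjusted p-values of the remaining members ran from 0.103 to 0.881.

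By role, all 6 helicase subunits were lower in VPA, with estimates from -0.28 for Mcm6 to -0.14 for Mcm7 and 4 of 6 without overlap. The smallest adjusted p among them was 0.0959, for Mcm4. In helicase activation 5 of 6 were lower without overlap, and Gins1 was the exception at 0.08. All 6 polymerase and primase genes and all 10 clamp and fork genes were lower, with medians of -0.22 and -0.17, but Rfc3 (-0.02) and Lig1, the ligase that joins Okazaki fragments (-0.04), lay near 0. The 5 nucleotide supply genes were lower, from -0.33 for thymidine kinase 1 (Tk1) to -0.14 for Rrm1, as were the 3 genes of chromatin assembly and histone supply (median -0.24). The 3 members that were not lower were Orc6 (0.19), Gins1 (0.08) and E2f1 (0.02, 95% interval -0.15 to 0.19). In S phase entry the estimate was -0.33 for Ccne2 (95% interval -0.60 to -0.06), and differences between genes were not tested.

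**Figure D4:**
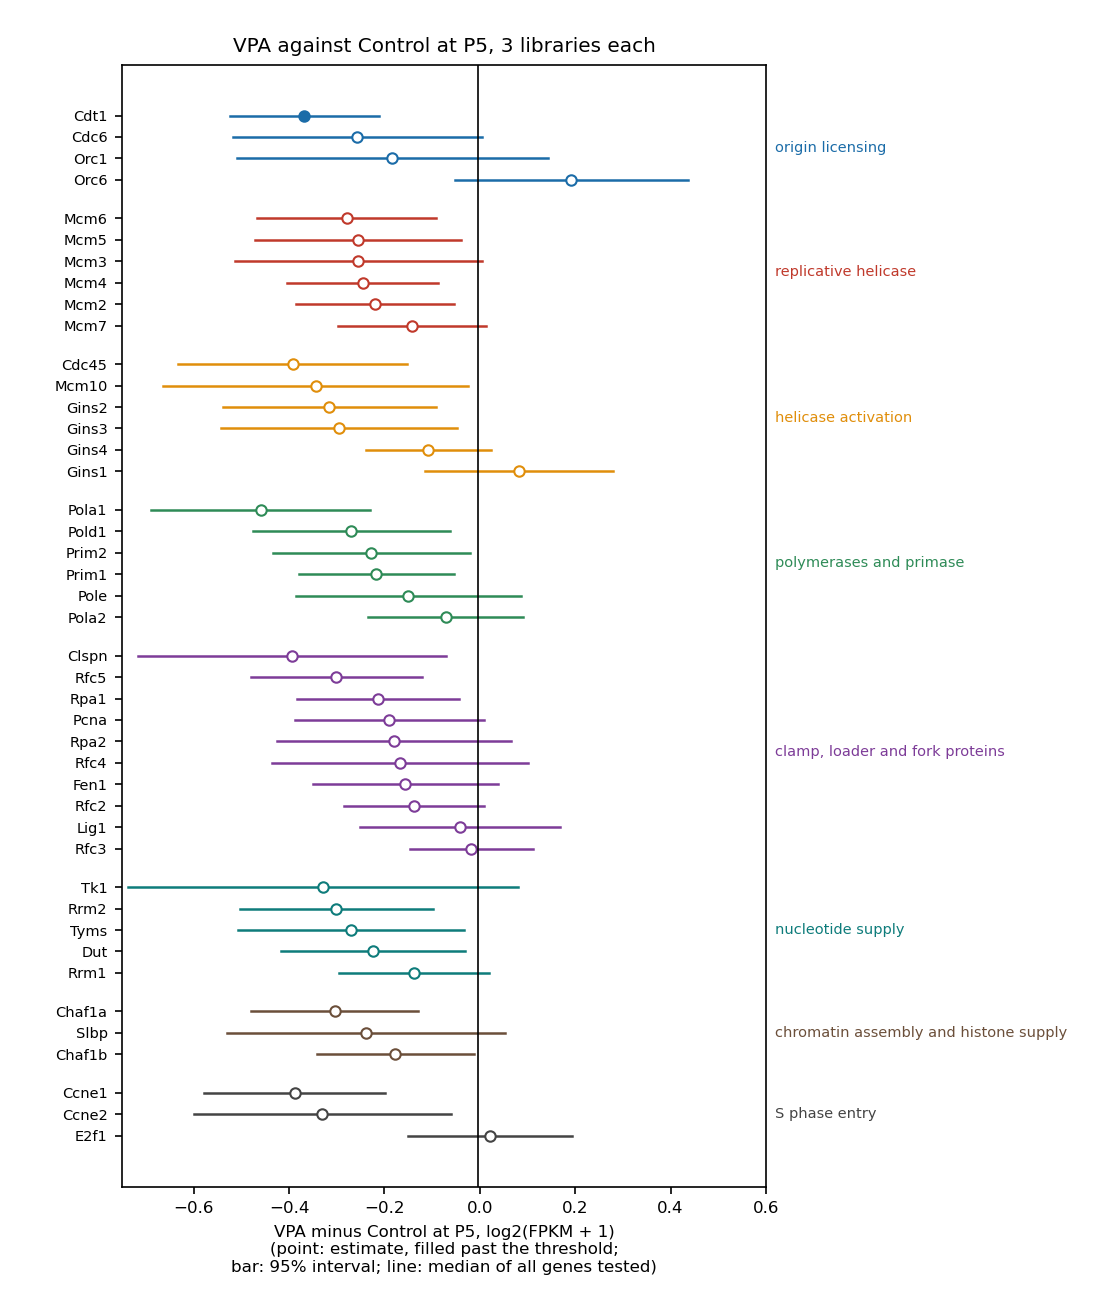
VPA minus Control at P5 in log2(FPKM + 1) for the 43 members by role, with points for the estimate (filled past the threshold), bars for the 95% interval and a line at the median of all genes tested (-0.004). Of the 43 points 40 lie left of 0, Cdt1 is the filled one, and Orc6 lies furthest to the right at 0.19.

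Of the 65 other replication genes, 56 were lower at P5 and 0 passed the threshold, with a median of -0.15, and 25 had an unadjusted p under 0.05, all lower. Nasp, a histone chaperone, had 81.4, 73.0 and 76.1 FPKM in VPA and 88.2, 91.7 and 94.7 in Control (-0.25, SE 0.056, adjusted p = 0.0679 by limma). Dna2, a nuclease and helicase of Okazaki fragment processing, had 5.14, 4.12 and 4.52 FPKM in VPA and 6.58, 6.00 and 6.70 in Control (-0.41, SE 0.094, adjusted p = 0.0702). Neither gene overlapped between groups.

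Markers of cycle genes and of other cell classes also differed between VPA and Control at P5, some lower and some higher. The 8 markers of G2 and mitosis were all lower in VPA, 1 past the threshold, and summed to 74.6 to 93.8 FPKM in VPA, against 104 to 114 in Control. The 10 stem and radial glial markers were all lower, 1 past the threshold, and summed to 2549 to 2656 FPKM in VPA, against 2666 to 3064 in Control. The 5 intermediate progenitor markers summed to 194 to 220 FPKM in VPA, against 222 to 246 in Control, with 4 of 5 lower and 0 past the threshold (unadjusted p under 0.05 in 3 lower and 1 higher). The higher one was Tbr1, with 53.0, 63.9 and 60.5 FPKM in VPA and 49.1, 46.6 and 53.3 in Control. The 6 pericyte markers were all higher, 2 past the threshold, and summed to 153 to 265 FPKM in VPA, against 99.98 to 114 in Control. All 5 fibroblast markers were higher, 2 past the threshold, with sums of 14.1 to 18.5 FPKM in VPA and 5.23 to 8.38 in Control. The 5 of 6 microglial markers that were tested were higher, with sums of 19.6 to 26.2 FPKM in VPA and 10.2 to 16.7 in Control. Endothelial markers summed to 7.12 to 9.69 FPKM in VPA and 2.36 to 5.07 in Control, with 1 of 5 tested. Red cell markers, of which 4 were found, were all lower, 2 past the threshold, and summed to 92.7 to 396 FPKM in VPA and 727 to 1033 in Control. Sums of the newborn neuron, mature neuron, oligodendrocyte lineage, astrocyte and choroid plexus lists overlapped between the groups. In that order, 4 of 5, 4 of 4, 4 of 6, 2 of 4 and 0 of the 2 tested were higher, and 0 passed the threshold. At an unadjusted p under 0.05, 1 newborn neuron, 1 mature neuron and 3 oligodendrocyte lineage markers were higher and 0 were lower. No marker of these lists was at 0 throughout either group, and the part of these classes in the lower level of the members was not tested. VPA replicate 2 was the lowest VPA library in 32 of 43 members, and without it the median of the members was -0.16.

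At 12 weeks, VPA with running was compared with VPA alone to ask how voluntary exercise went with the levels of these genes in VPA mice. The helicase genes and nucleotide supply genes had higher estimates in running libraries, but no member passed the threshold in limma, as was so for every gene (0% of 13847). Of the members, 10 had an unadjusted p under 0.05 and were higher (4.67% of all genes), and 1 (Rfc4) was lower (6.64% of all genes). Estimates were above 0 for 28 members and below 0 for 15 (29 and 14 with quantile scaling), with a median of 0.19, against -0.05 for all genes. The running and VPA groups did not overlap in 9 members that were higher (6.98% of all genes) and in 1 that was lower, Prim2 (8.48% of all genes). Leaving out running replicate 3, VPA replicate 1 or running replicate 1 raised the median to 0.33, 0.32 and 0.30. It was 0.16 without VPA replicate 3, 0.19 without VPA replicate 2 and 0.22 without running replicate 2. With 1 library left out, 5 to 9 members were higher at an unadjusted p under 0.05. That count was 5 without VPA replicate 2 and 6 without VPA replicate 3. In a fit of all 21 libraries, which takes the smaller spread at E15 and P5 into the test, 10 members were called higher and 3 lower. The share of all genes called in that fit is not given here.

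Mcm6 had 67.1, 75.4 and 49.5 FPKM in VPA with running, against 38.4, 26.3 and 37.3 in VPA (0.89, 95% interval 0.41 to 1.37, adjusted p = 0.183 by limma). Control libraries had 50.7, 49.5 and 50.3 FPKM, between the running and VPA groups apart from the lowest running library. Rrm1, the large subunit of ribonucleotide reductase, had 35.1, 34.0 and 54.4 FPKM in VPA with running, 26.5, 21.9 and 14.5 in VPA and 29.3, 32.4 and 29.3 in Control. Its 3 groups did not overlap, and running against VPA gave 0.95 (SE 0.27, adjusted p = 0.244). Prim1, whose values are given above, differed by 0.70 (SE 0.23, adjusted p = 0.298). The other members without overlap that were higher in running libraries were Pcna (0.57), Clspn, which relays replication stress signals (1.42), Mcm2 (0.74), Mcm3 (0.84), Pole, the catalytic subunit of polymerase epsilon (0.99), and Mcm10, which helps to start the helicase (1.06). All 6 helicase subunits had estimates above 0, from 0.28 for Mcm7 to 0.89 for Mcm6, and so did all 5 nucleotide supply genes, from 0.04 for Dut to 1.13 for Rrm2.

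Rfc4, a subunit of the clamp loader at chr16:23113943-23127737 on the minus strand (mm10), was listed at 18.1, 0 and 0 FPKM in VPA with running, 12.8, 19.0 and 10.6 in VPA and 15.8, 27.1 and 7.51 in Control. Running replicates 2 and 3 were at 0 while the other 7 libraries had 7.51 or more, and no difference is given because it would rest on the added 1 FPKM. Without running replicate 1, whose level lay within those of VPA, Rfc4 was called lower in running against both other groups. Of 8635 genes with at least 5 FPKM in the other 7 libraries at 12 weeks, 12 were at 0 in both of these running libraries, Rfc4 among them. Of 11325 genes at 1 FPKM or more in every E15 and P5 library, 8.51% were at 0 in running replicate 3 and 3.47% in running replicate 2. The other 7 libraries had 0.450% to 2.86% at 0, and the part of such zeros in the level of Rfc4 was not tested. Ccne2, the second cyclin E, was likewise at 0 in running replicates 2 and 3 and in VPA replicate 3.

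Marker sums also differed between running and VPA libraries. The 10 stem and radial glial markers summed to 1413 to 1970 FPKM in VPA with running and 886 to 1041 in VPA, with 9 of 10 higher. The 8 markers of G2 and mitosis summed to 57.3 to 76.3 FPKM in VPA with running and 22.8 to 50.6 in VPA, with 6 of 8 higher. Intermediate progenitor markers summed to 276 to 304 FPKM in VPA with running and 130 to 259 in VPA, with 5 of 5 higher, and oligodendrocyte lineage markers to 581 to 623 in VPA with running and 885 to 1366 in VPA, with 5 of 6 lower. The 4 astrocyte markers summed to 382 to 496 FPKM in VPA with running and 279 to 372 in VPA, with 3 of 4 higher. Microglial markers summed to 9.75 to 37.2 FPKM in VPA with running and 49.3 to 60.5 in VPA, with 5 of 6 lower. The sums of the newborn and mature neuron, pericyte, endothelial, fibroblast, red cell and choroid plexus lists overlapped between the groups. None of the markers passed the threshold, and those at 0 throughout a group were Alas2 of red cells in VPA with running and Folr1 and Kcnj13 of choroid plexus in VPA. The part of these classes in the higher level of the members was not tested. Of the 65 other replication genes 47 were higher in running libraries and 0 passed the threshold, with 4 higher and 1 lower at an unadjusted p under 0.05. Pole3, an accessory subunit of polymerase epsilon, had 52.3, 28.2 and 104 FPKM in VPA with running and 24.0, 17.9 and 14.4 in VPA (1.5, SE 0.40, adjusted p = 0.211 by limma). Orc5 had 26.4, 19.1 and 22.2 FPKM in VPA with running and 17.9, 12.4 and 7.17 in VPA (0.88, SE 0.34, adjusted p = 0.365).

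VPA against Control at 12 weeks gave 0 members past the threshold in limma, and 0% of all genes passed. At an unadjusted p under 0.05, 1 member was higher (Prim2, with 3.27% of all genes) and 1 was lower (Mcm6, with 3.12% of all genes). Estimates were below 0 for 30 members and above 0 for 13, and the median was -0.27, against -0.01 for all genes. That median was -0.11 without Control replicate 2, -0.12 without VPA replicate 3 and -0.15 with library weights. VPA lay below Control without overlap in 4 members (7.63% of all genes), which were Mcm6, Rrm1, Cdt1 and Rpa2, and above it in 2 (7.83% of all genes), Prim2 and Gins4. Mcm6 differed by -0.57 (SE 0.22, adjusted p = 0.704 by limma), and its VPA libraries were spread over a wider range than its Control libraries. Cdt1 had 14.3, 10.9 and 9.38 FPKM in VPA, against 15.5, 23.5 and 18.7 in Control (-0.69, SE 0.35, adjusted p = 0.778). It was also lower without overlap at P5, but the share of all genes lower without overlap at both ages was not computed. E2f1 differed by -0.85 (SE 0.39, adjusted p = 0.772) with groups that overlapped.

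Prim2, the regulatory subunit of primase at chr1:33453810-33669795 on the minus strand (mm10), went the other way. It had 18.3, 16.3 and 13.6 FPKM in VPA, against 12.7, 4.50 and 7.36 in Control (0.98, SE 0.38, adjusted p = 0.711 by limma), and 11.5, 8.18 and 7.69 in VPA with running. The VPA libraries were the highest of the 9. Markers of newborn neurons summed to 590 to 743 FPKM in VPA and 942 to 1069 in Control with 5 of 5 lower, and fibroblast markers to 4.06 to 13.5 in VPA and 17.3 to 40.0 in Control with 5 of 5 lower. Oligodendrocyte lineage markers lay apart the other way, at 885 to 1366 FPKM in VPA and 753 to 858 in Control, with 4 of 6 higher (3 higher and 2 lower at an unadjusted p under 0.05). Sums of the remaining lists overlapped, among them intermediate progenitor markers (130 to 259 FPKM in VPA and 240 to 266 in Control, 5 of 5 lower), endothelial markers (39.0 to 102 in VPA and 97.6 to 270 in Control, 5 of 5 lower), stem and radial glial markers (886 to 1041 in VPA and 911 to 1839 in Control, 8 of 10 lower) and markers of G2 and mitosis (22.8 to 50.6 in VPA and 37.9 to 84.8 in Control, 6 of 8 lower). None passed the threshold, and their part in the members' levels was not tested. Of the other replication genes 36 of 65 were lower and 0 passed the threshold, with 1 higher and 1 lower at an unadjusted p under 0.05. Tipin had 27.3, 39.8 and 47.6 FPKM in VPA and 25.8, 26.2 and 17.7 in Control (0.68, SE 0.27, adjusted p = 0.716). Pole3 had 24.0, 17.9 and 14.4 FPKM in VPA and 36.5, 31.7 and 44.8 in Control (-0.98, SE 0.40, adjusted p = 0.729).

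**Figure D5:**
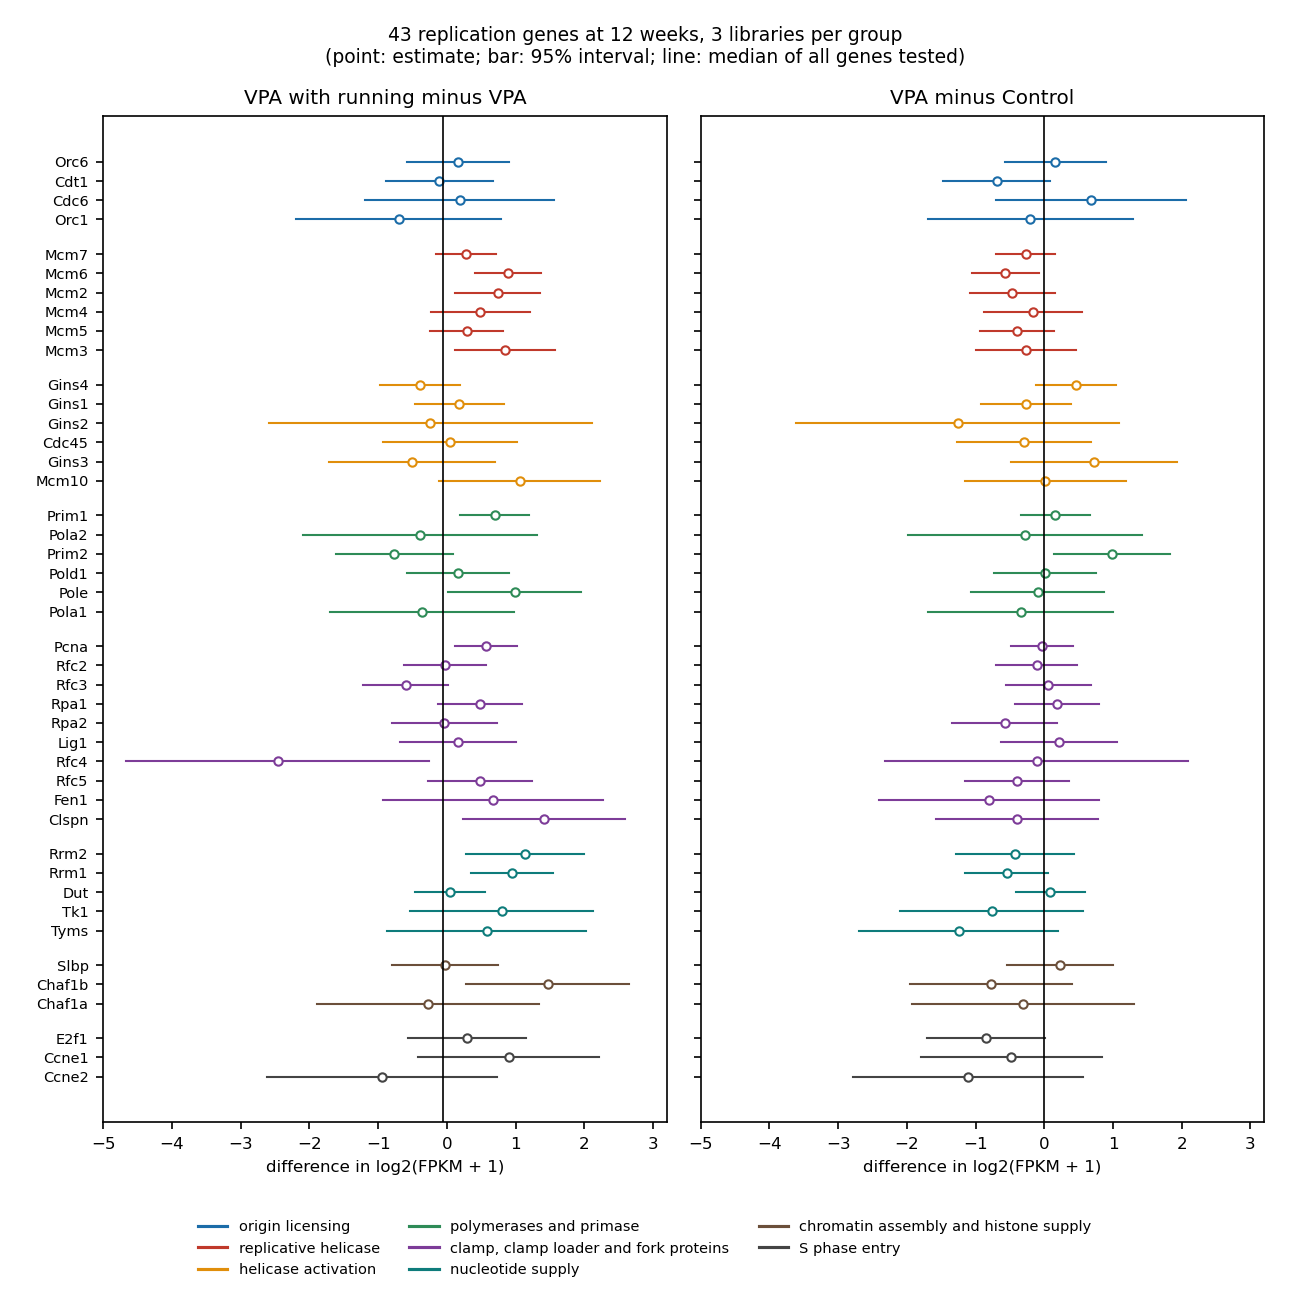
Differences in log2(FPKM + 1) at 12 weeks for the 43 members by role, VPA with running minus VPA on the left and VPA minus Control on the right, with bars for the 95% interval and a line at the median of all genes tested (-0.05 and -0.01). No member passed the threshold, and the panels share the VPA libraries, so a gene high in those libraries lies left in one and right in the other by construction.

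The third comparison at 12 weeks set VPA with running against Control, and it shares libraries with both of the others. In limma 0 members and 0% of all genes passed the threshold, and 3 members were higher (3.07% of all genes) and 3 lower (4.69% of all genes) at an unadjusted p under 0.05. Estimates were above 0 for 26 members and below 0 for 17 (25 and 18 with quantile scaling), with a median of 0.13, against -0.07 for all genes. The median was 0.02 without Control replicate 2 or without running replicate 1, and 0.20 without running replicate 2. The groups did not overlap in 4 members that were higher in running libraries (5.83% of all genes) and in 2 that were lower (7.24% of all genes). Prim1 had the smallest p, with every running library above every Control library (0.86, 95% interval 0.36 to 1.36, adjusted p = 0.612). Pcna differed by 0.54 (SE 0.20, adjusted p = 0.619) with overlapping groups. Ccne2 was listed at 2.25, 0 and 0 FPKM in VPA with running, 4.46, 3.29 and 0 in VPA and 4.01, 9.12 and 3.62 in Control. All running libraries were below all Control libraries for Ccne2. The marker sums that lay apart were those of intermediate progenitors (276 to 304 FPKM in VPA with running and 240 to 266 in Control, 4 of 5 higher), the oligodendrocyte lineage (581 to 623 in VPA with running and 753 to 858 in Control, 6 of 6 lower) and fibroblasts (6.00 to 14.5 in VPA with running and 17.3 to 40.0 in Control, 5 of 5 lower). None of these markers passed the threshold, and their part in the members' levels was not tested. Of the other replication genes 43 of 65 were higher and 0 passed, with 3 higher and 2 lower at an unadjusted p under 0.05. Tipin, with 63.7, 42.1 and 54.2 FPKM in VPA with running, lay above all Control libraries (1.17, SE 0.27, adjusted p = 0.612). Dck, which phosphorylates salvaged deoxynucleosides, had 36.3, 38.6 and 59.7 FPKM in VPA with running and 25.0, 19.9 and 24.8 in Control (0.89, SE 0.24, adjusted p = 0.612).

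Among Control libraries the replication genes were higher in P5 dentate gyrus than in E15 forebrain. Age and tissue changed together here and cannot be told apart, and whether the authors normalised the ages together was not given in the sources used here. In limma 10 of 43 members rose and 0 fell, where 14.4% of all 14662 genes rose. Estimates were above 0 for 40 members, against 62.4% of all genes, and for 36 members with median-of-ratios scaling and 34 with quantile scaling. At P5, 30 members were higher without overlap (44.3% of all genes). The median was 0.51, against 0.14 for all genes. Scaling moved the median of all genes to 0.05 (median-of-ratios) or -0.06 (quantile), where that of the members was 0.42 and 0.31, and quantile scaling left 5 members called. A fit of the 6 libraries alone called 29 members higher, and a fit with library weights called 36 higher and 1 lower. The shares of all genes called in those fits are not given here, so these counts cannot be set against them.

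Mcm6, at chr1:128331590-128359664 on the minus strand (mm10), had 52.6, 45.4 and 47.0 FPKM in Control at P5, against 25.9, 23.7 and 19.8 at E15. It rose by 1.04 (95% interval 0.71 to 1.37, SE 0.16, adjusted p = 7.6e-05 by limma), with no overlap, and the call held in all alternatives (adjusted p 8.69e-11 to 0.000897). E2f1 rose by 1.17 (SE 0.27, adjusted p = 0.00466) and Cdt1 by 1.17 (SE 0.25, adjusted p = 0.00227). Cdt1 had 15.6, 14.2 and 15.2 FPKM in Control at P5, against 8.71, 5.32 and 4.82 at E15, where replicate 1 was the high one. Dut, which removes dUTP, had 29.8, 28.1 and 32.5 FPKM at P5, against 18.7, 19.2 and 17.3 at E15 (0.68, SE 0.15, adjusted p = 0.00218). With Pcna (0.62, SE 0.15, adjusted p = 0.00625), these 5 were called with quantile scaling and without any 1 of the 6 libraries.

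The other 5 calls were less firm under quantile scaling and when 1 library was left out. All 5 were called in the fit of the 6 libraries alone. The main fit takes 1 estimate of spread over all 21 libraries, which is wider than the spread at E15 and P5. The p-values for P5 against E15 may therefore be too large. Ccne1 had the largest rise of the members, with 10.5, 9.44 and 10.4 FPKM at P5, against 3.8, 3.05 and 2.25 at E15 (1.48, SE 0.46, adjusted p = 0.0283 by limma). It was called without Control replicate 1 at E15 but not without any of the other 5 libraries (adjusted p 0.0657 to 0.108). Mcm3 had 23.3, 20.5 and 19.9 FPKM at P5, against 14.9, 9.30 and 9.49 at E15 (0.89, SE 0.25, adjusted p = 0.0165), and was not called without replicate 2 or 3 at E15 or replicate 1 at P5 (adjusted p 0.0690 to 0.0816). Mcm5 (0.65, SE 0.18, adjusted p = 0.0132) was not called without replicate 3 at E15 (adjusted p = 0.0979) or replicate 1 at P5 (adjusted p = 0.0503). Rpa2, a subunit of the single-strand binding protein RPA, had 24.2, 20.9 and 23.3 FPKM at P5, against 16.2, 12.1 and 12.0 at E15 (0.73, SE 0.25, adjusted p = 0.0495). Mcm4 had 21.4, 21.7 and 21.8 FPKM at P5, against 14.7, 13.1 and 12.1 at E15 (0.67, SE 0.23, adjusted p = 0.0496). Rpa2 was called without replicate 1 at E15 but lost without each of the other 5 libraries, and Mcm4 was lost without each of the 6, with adjusted p of 0.0685 to 0.158. Over these 5 genes the alternatives gave adjusted p from 3.8e-08 to 0.201.

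By role, the rises were 1 of 4 licensing genes, 4 of 6 helicase genes, 2 of 10 clamp and fork genes, 1 of 5 nucleotide supply genes and 2 of 3 genes of S phase entry, with 0 of 6 in helicase activation, 0 of 6 among polymerases and primase and 0 of 3 in chromatin assembly and histone supply. In the fit of the 6 libraries alone these zeros became 5 of 6, 2 of 6 and 3 of 3, and no difference between roles was tested. Markers of G2 and mitosis were also higher in all 8 of 8 cases, 2 past the threshold, and summed to 104 to 114 FPKM at P5 and 50.5 to 104 at E15 in Control. Markers of other classes also moved. All 6 oligodendrocyte lineage markers rose (median 3.85, sums 219 to 294 FPKM at P5 and 11 to 16.2 at E15), as did all 4 astrocyte markers (median 3.45, 213 to 266 at P5 and 22.1 to 24.4 at E15), 6 of 10 stem and radial glial markers (median 2.13), 5 of 6 pericyte markers (median 2.01) and 3 of 4 red cell markers (median 4.94). Of microglial and fibroblast markers 2 of 6 and 2 of 5 rose. Of the intermediate progenitor markers 1 of 5 rose and 3 fell (median -1.09), of the newborn neuron markers 2 of 5 rose and 3 fell, and of the mature neuron markers 1 of 4 rose and 2 fell. No endothelial or choroid plexus marker passed the threshold. The part of these classes in the rise of the members was not tested. Of the other replication genes 11 rose and 1 fell. Cdk2, the kinase partner of cyclin E, had 24.4, 23.9 and 19.6 FPKM at P5 and 12.1, 7.41 and 7.70 at E15 (1.26, SE 0.29, adjusted p = 0.00388 by limma). Dtl, part of the ubiquitin ligase that removes Cdt1 in S phase, rose by 1.23 (SE 0.37, adjusted p = 0.0237), and Ung, which excises uracil from DNA, by 1.16 (SE 0.39, adjusted p = 0.0442). Top1, a topoisomerase that relaxes DNA, fell by 0.45 on the log2 scale, with 66.2, 70.0 and 74.5 FPKM at P5 and 93.0, 103 and 92.6 at E15 (SE 0.13, adjusted p = 0.0232).

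From P5 to 12 weeks in Control dentate gyrus, 2 of 43 members fell in limma, which is near the share over all genes (5.35%). None rose, where 7.26% of all genes did. Estimates were below 0 for 29 members and above 0 for 14 (28 and 15 with quantile scaling), with a median of -0.15, against -0.04 for all genes, and 13 members were lower without overlap (19.1% of all genes). The median was -0.04 without Control replicate 3 at 12 weeks, where 21 members were higher and 22 lower, -0.10 without replicate 1 and -0.27 without replicate 2. Prim2 had 12.7, 4.50 and 7.36 FPKM at 12 weeks, against 14.6, 13.3 and 16.6 at P5 (-0.88, SE 0.24, adjusted p = 0.0219 by limma). Mcm10, at chr2:4989714-5012791 on the minus strand (mm10), had 1.37, 3.52 and 0.651 FPKM at 12 weeks, against 5.08, 4.33 and 3.90 at P5 (-1.06, SE 0.34, adjusted p = 0.0494). Both groups of each gene were apart, and the 12-week libraries were the more spread. Rrm2 had 30.3, 18.4 and 19.3 FPKM at 12 weeks, against 44.9, 39.5 and 44.4 at P5, and missed the threshold (-0.93, SE 0.30, adjusted p = 0.0540).

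The call of Prim2 was lost without replicate 1 or 3 at P5 or replicate 2 or 3 at 12 weeks (adjusted p 0.0593 to 0.108), with an estimate of -0.56 without replicate 2 at 12 weeks, over a range from 0.000649 to 0.130 in all alternatives. That of Mcm10 was lost without any library other than replicate 2 at 12 weeks (adjusted p 0.0939 to 0.205), over a range from 0.00702 to 0.205. A fit of the 6 libraries alone called Pola2 and Rrm2 lower in place of these 2. In the fit of all 21 libraries the median SE of a member was 0.25 for this comparison. It was 0.38 for VPA against Control in the fit at 12 weeks and 0.086 in the fit at P5. The comparison of 12 weeks with P5 takes 1 group from each age, so neither is a like measure. Its p-values may be too small, but by how much was not computed. The helicase subunits stood near their P5 level, with estimates from -0.24 to 0.12 and a median of 0.05. Markers of G2 and mitosis were lower at 12 weeks in 8 of 8, 1 past the threshold, with sums of 37.9 to 84.8 FPKM at 12 weeks and 104 to 114 at P5. Pericyte and endothelial markers rose in 6 of 6 and 5 of 5 (medians 2.83 and 3.13), oligodendrocyte lineage markers in 5 of 6 (median 1.68), microglial markers in 3 of 6 (median 2.17, all 6 higher) and fibroblast markers in 2 of 5, and 2 of 4 astrocyte markers rose and 1 fell. Of the stem and radial glial markers 3 of 10 fell, of the red cell markers 3 of 4 and of the newborn neuron markers 1 of 5. The part of these classes in the levels of the members was not tested. Of the other replication genes 2 rose and 5 fell. Samhd1, which hydrolyses deoxynucleotides, had 12.5, 15.1 and 12.0 FPKM at 12 weeks and 6.71, 7.70 and 7.71 at P5 (0.76, SE 0.22, adjusted p = 0.0297 by limma), and Pole4 of polymerase epsilon rose by 0.51 (SE 0.13, adjusted p = 0.0175). Cyclin A2 (Ccna2) fell by 1.33 on the log2 scale (SE 0.35, adjusted p = 0.0183), Dbf4, the activator of the Cdc7 kinase, by 1.26 (SE 0.34, adjusted p = 0.0203) and E2f3 by 0.84 (SE 0.18, adjusted p = 0.00458).

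Whether the difference between VPA and Control itself changed with age was tested as an interaction in the fit of all 21 libraries. Between P5 and E15 the difference changed in 0 members (0.0955% of all genes), with a median of -0.26, against 0.005 for all genes. At an unadjusted p under 0.05 there were 0 members (0.784% of all genes higher and 1.15% lower). Between 12 weeks and P5 it changed in 0 members (0.389% of all genes). At an unadjusted p under 0.05, 2 members were higher (4.95% of all genes) and 1 was lower (5.59% of all genes). These were Prim2 (1.21, SE 0.34, adjusted p = 0.149 by limma), Gins4 (0.57, adjusted p = 0.416) and E2f1 (-0.87, adjusted p = 0.438). Between 12 weeks and E15 it changed in 0 members (0.0818% of all genes), with the smallest adjusted p again in Prim2 (1.06, adjusted p = 0.325). Here 2 members were higher (4.29% of all genes) and 4 lower (4.46% of all genes) at an unadjusted p under 0.05. Without Control replicate 1 at 12 weeks, 1 member, Prim2, was called in each of the last 2 tests. With library weights the change between P5 and E15 was called in 19 members, 18 lower and 1 higher, and a fit of only the groups compared called 0, with 8 lower and 1 higher at an unadjusted p under 0.05. Shares of all genes in those fits are not given here. The interaction tests take 1 estimate of spread over all ages, which is wider than the spread at E15 and P5. For the median member it is narrower than the spread at 12 weeks, so p-values that involve libraries at 12 weeks may be too small. The 13 members with an E2F-type match and the 22 with a window but no match had medians at P5 of -0.26 and -0.22 for VPA against Control, and of 0.65 and 0.46 for P5 against E15 in Control, given as a description.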

How the data were processed

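RNA was measured by sequencing polyA RNA in 21 libraries, 3 in each of 7 groups. Bowtie2, TopHat, Cuffdiff and Cufflinks are named in the submitters' processing notes, with mm10 as the build and without versions. The FPKM values were taken as the authors deposited them. The headers of the 12-week tables name FPKM, and the unit of the E15 and P5 tables was inferred from their values. No source used here says whether tables of different ages were normalised together.

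Values were analysed as log2(FPKM + 1), so differences understate the change of genes with low levels. A gene was tested where 3 or more libraries of the fit reached 1 FPKM, using limma 3.58.1 (R 4.3.3, trended prior), with Benjamini-Hochberg adjustment over all genes tested and a threshold of 0.05. Every p-value given comes from this test, and all tests are two-sided. VPA and Control were fitted in 6 libraries at E15, 6 at P5 and 9 at 12 weeks, and ages and interactions in all 21. Groups were called not overlapping where every library of one lay above every library of the other. The code was tested on simulated data. Values per library are given for members past the threshold (at most 8 by size), for those with the smallest p where fewer than 3 passed, for the most abundant member of each role and for members too low to test. Of other replication genes, those past the threshold are named, up to 3 in each direction, or the 2 with the smallest p. The members and lists were chosen with earlier results of these data known. Alternatives were another pseudocount, filters, scalings, prior, library weights, a replicate block, other sets of libraries and each library left out.

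Replicate numbers were checked for pairing by correlating the deviations of same-numbered libraries from their group means. At E15 the correlations were 0.126, 0.115 and 0.228, against -0.151 to 0.0227 between libraries with different numbers. Same-numbered libraries were thus more alike there, but the labels do not say that they were paired. The main fit at E15 did not pair libraries, and the block changed no call at E15. Coordinates are those of GENCODE vM21 (GRCm38, the same assembly as mm10), and promoter windows those of RefSeq on GRCm38.p6.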

Additional observations from a re-analysis of the deposited data

Results flagged for a closer look

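Prim2 of primase and Gins4 of the GINS complex stood out because VPA and Control lay apart without overlap at 12 weeks and at P5, in opposite directions. For Prim2, VPA minus Control was 0.98 at 12 weeks and -0.23 at P5, and the change of 1.212 on the log2(FPKM + 1) scale had an unadjusted p of 0.00232 and an adjusted p of 0.149 by limma, so the test of the difference was not passed. For Gins4, VPA minus Control was 0.46 at 12 weeks and -0.11 at P5, and the change of 0.5701 had an unadjusted p of 0.0326 and an adjusted p of 0.416 by limma. Over all genes, 375 of 14662 (2.56%) had groups apart in opposite directions at these ages, and 2 members were among them. The tests took 1 estimate of spread over all ages, and their p-values may be too small where libraries at 12 weeks are involved. Without Control replicate 1 at 12 weeks, the library high in microglial and red cell markers, the change of Prim2 passed the threshold. The cause was not tested.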

How the results depend on the processing

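No value changed direction under the alternatives tried for the members called. Of 117 values of called members under other settings 95 kept their call and 22 lost it, and of 78 with 1 library left out 42 kept it and 36 lost it. For VPA against Control at P5, 0 members were called with no filter, with quantile normalization, with the replicate block and with all 21 libraries, 2 without the trended prior, 6 with library weights, and 0 to 2 with 1 library left out. At 12 weeks a fit of all 21 libraries called 1 member for VPA against Control, 13 for running against VPA and 4 for running against Control, and with 1 library left out 0 to 1 were called in each running comparison. With running replicates 2 and 3 both left out, a choice made after seeing the data, the median for running against VPA was 0.513, where the lone running library is assumed to vary like the others. The median for VPA against Control at 12 weeks ran from -0.353 to -0.106 with 1 library left out, and at E15 it was 0.222 with library weights. For P5 against E15, 5 members were called with quantile normalization (median 0.306), 37 with library weights (median 0.655), 29 in the 6 libraries alone and 5 to 11 with 1 library left out. For 12 weeks against P5, 1 was called with a pseudocount of 0.1, with no filter, with a filter at 5 FPKM and with median-of-ratios scaling, and 0 to 2 with 1 library left out. For the change of the VPA difference between P5 and E15, library weights gave 19 members and a median of -0.386. With 1 library left out, 0 to 1 were called for its change between 12 weeks and P5 and between 12 weeks and E15, where the median ran from -0.469 to -0.158. Apart from the smaller number of libraries, the cause was not tested. Shares of all genes called under these alternatives are not given here.

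Same-numbered libraries correlated by 0.0132 to 0.0943 at P5, where those with different numbers correlated by -0.0652 to 0.0197. At 12 weeks same-numbered libraries correlated by -0.0822 to 0.017. No pairing was taken from the numbers at these ages, and the labels do not say whether there was any. The replicate block took the call of Cdt1 at P5 to an adjusted p of 0.0878, gave 11 members for P5 against E15 and 3 for 12 weeks against P5, and changed the other counts of called members in none of the comparisons. Relative depth could be read from low values at E15 and P5 only, and levels at 12 weeks, with more genes listed at 0, limit what could be detected there.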
